A study of Mus musculus with 6 samples.

Results

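The genes described are the eukaryotic translation initiation factors, with their binding proteins and eIF2-alpha kinases, and the aminoacyl-tRNA synthetases of mouse liver. Members were found by the words "eukaryotic translation initiation factor" or "tRNA synthetase" in the array's target descriptions, without the kinase Eif2ak2. The words matched 180 target rows, 179 of which remained without that kinase, and these fell into 97 genes of the 36476 features of the array. A gene with more than 1 target row, as 50 had, is represented by the row brightest on average across the 6 arrays, and 47 genes had 1 row. The array measured liver RNA of 6 male wild-type C57 BL/6 mice, 9 to 10 weeks old, on 6 single-colour arrays with 1 mouse each. The LPS/GalN group held 3 mice given 0.01 µg of LPS and 20 mg of GalN, and the LPS group held 3 mice given 0.01 µg of LPS alone. Both groups were therefore LPS-treated and were taken 2.5 h after treatment, each mouse from its own treatment, and untreated or GalN-only livers were not analysed here. LPS, or lipopolysaccharide, comes from the outer membrane of Gram-negative bacteria and acts through Tlr4, and GalN is galactosamine, an amino sugar taken up mainly by hepatocytes, where it ties up uridine nucleotides and hinders RNA synthesis.

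Translation starts when eIF2 brings the initiator tRNA to the small ribosomal subunit and the eIF4 factors bring the capped mRNA to it, while eIF1, eIF1A, eIF3 and eIF5 hold the complex together during the search for the start codon. The guanine nucleotide exchange factor eIF2B recharges eIF2, and kinases that phosphorylate the alpha subunit of eIF2 block that step under amino acid shortage, unfolded protein, haem shortage or viral RNA. Aminoacyl-tRNA synthetases load each tRNA with its amino acid, mostly with separate genes for the cytosol and for mitochondria, and the liver depends on both for its high output of plasma proteins.

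All differences below are log2 RMA intensity in LPS/GalN minus LPS, and a gene is said to have risen or fallen where limma's p-value, adjusted over all features by the Benjamini-Hochberg method, was under 0.05. A row of random probes, used as the background of each array, lay between log2 4.97 and 5.12. Of the 97 members, 93 were above it on all 6 arrays. All 12 hepatocyte markers were above background on every array, and their summed intensity was 475124 to 509600 in LPS/GalN and 505128 to 547978 in LPS. Some arrays carried genes of other tissues. The summed intensity of 8 measured thymus markers was 396, 11916 and 7280 on LPS/GalN arrays 1, 2 and 3, against 485, 453 and 652 on the LPS arrays, with all 8 above background on LPS/GalN arrays 2 and 3 and 6 or 7 elsewhere. The sum of 9 intestine markers was 1706, 1527 and 1384 in LPS/GalN and 21306, 23971 and 2025 in LPS, with all 9 above background on LPS arrays 1 and 2 and 7 elsewhere. The sum of 9 sinusoidal endothelial markers was 11290 to 13927 in LPS/GalN and 5691 to 8719 in LPS, that of 10 Kupffer cell markers was 23185 to 25437 in LPS/GalN and 11417 to 16813 in LPS, and that of 8 neutrophil markers was 1281 to 2363 in LPS/GalN and 2996 to 4241 in LPS. Their part in the results below was not tested. In bulk liver, fewer cells of a type and less RNA per cell cannot be told apart.

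In the livers given LPS/GalN, 5 of the 97 members fell and 0 rose. The genes that fell were Eif1a and an eIF1A homolog on chromosome 12, Eif6, the tryptophanyl-tRNA synthetase Wars and the mitochondrial arginyl-tRNA synthetase Rars2. Over all features, 3.01% fell and 0.603% rose, 3.61% in either direction, while 5.15% of members fell. Among features above background on all arrays, 4 of 93 members fell, or 4.30%, against 5.07% of 19796 features. At an unadjusted p under 0.05, 3 members were higher and 11 lower in LPS/GalN, against 8.50% and 9.03% of all features. Among features above background on all arrays these shares were 11.1% and 12.7%. The groups did not overlap in 14 members that were higher and 14 that were lower, against 13.0% and 11.1% of all features. Of the 19796 features above background on all arrays, 3556 were higher and 2957 lower without overlap. Most differences were small, within 0.5 in 79 of the 97, or 81.4%, against 70.2% of all features and 64.8% of those above background on all arrays. The median change was 0.07 over the members and 0.05 over all features.

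**Figure D1:**
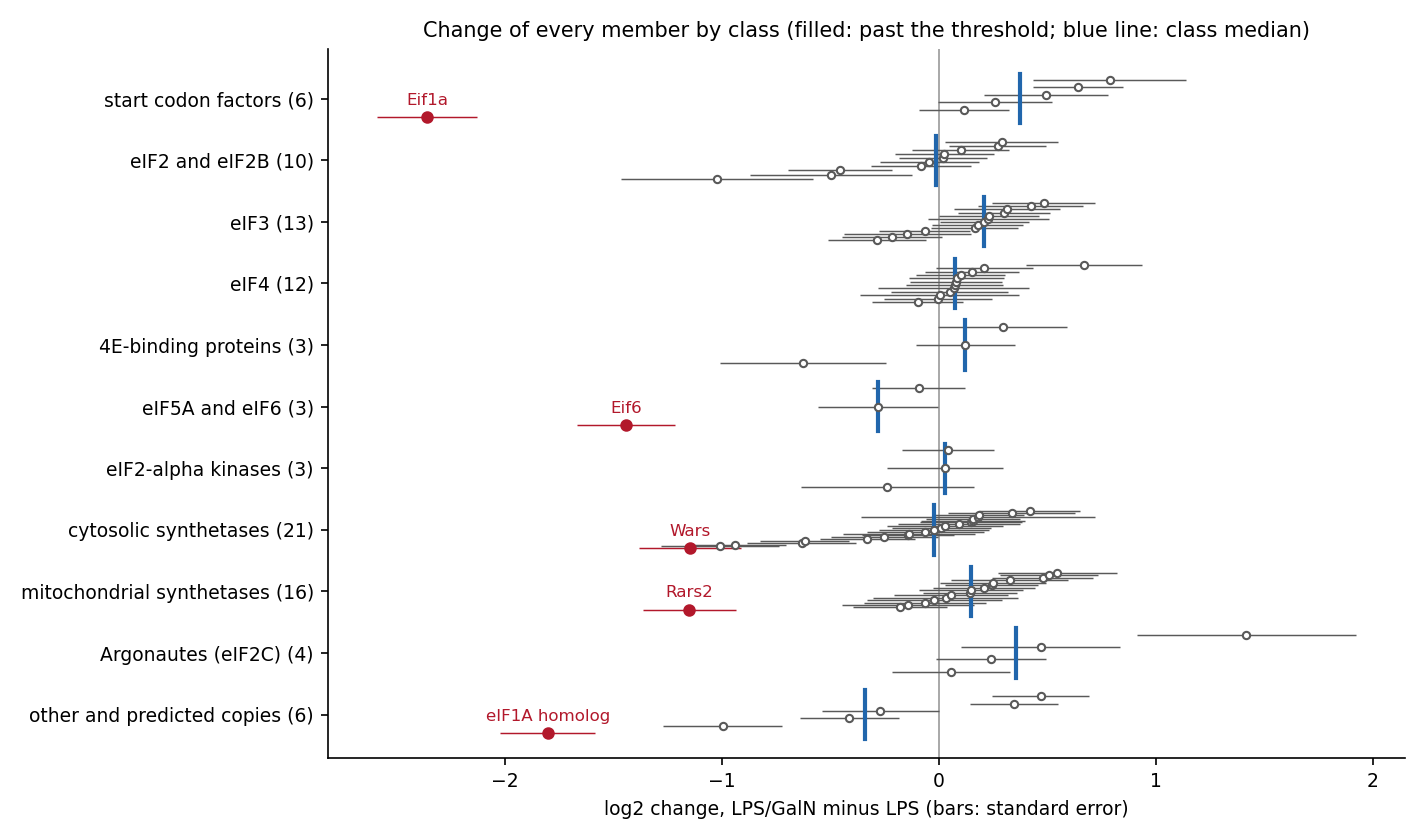
Change of each of the 97 members (x axis, log2 RMA intensity, LPS/GalN minus LPS, with its standard error) by class (y axis, number of members in brackets). Filled red points are the 5 members past the threshold, all to the left of 0 (the eIF1A homolog's change is a bound), and the blue lines are the class medians, between -0.34 and 0.37.

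Among the 6 members grouped as start codon factors, Eif1a fell and 0 rose. The group also holds Eif1ad, a nuclear protein with an eIF1A-like domain, which is described with the Argonautes below. Eif1a encodes eIF1A, which binds the decoding site of the small subunit and promotes scanning. Its target, on chromosome 18 at 46757395 to 46768829 of mm9, measured log2 8.70, 8.56 and 8.29 in LPS/GalN, against 10.95, 10.66 and 11.01 in LPS. Every LPS/GalN liver was thus well below every LPS liver, a difference of -2.36 ± 0.23 (SE), or 5.13-fold lower (limma adjusted p = 0.00168). With LPS/GalN arrays 2 and 3 left out the difference was -2.18, and with LPS arrays 1 and 2 left out it was -2.50. A row that carries the same gene name lies on chromosome 12 and near background, and gives no check of this fall.

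A row described as an eIF1A homolog, from a clone on chromosome 12, also fell. It measured 5.37, 5.11 and 4.92 in LPS/GalN and 6.89, 6.97 and 6.95 in LPS, and passed (limma adjusted p = 0.00385). The LPS/GalN values lay at or near background, with 2 of the 3 above it by a small margin, so the difference is a bound. Against the higher of background and the row's own value on each array, the row was lower by 1.79 on the log2 scale. This value leaves out sampling error, and the limma interval of the difference without that floor was -2.31 to -1.30. Probe sequences were not analysed here, and how far the rows named eIF1A share signal through similar sequence was not tested.

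None of the other start codon factors passed the threshold. Eif1ax, the X-linked eIF1A gene (its row is described as Y-linked but placed on X), measured 8.77, 8.30 and 9.25 in LPS/GalN and 8.12, 8.29 and 8.44 in LPS, a difference of 0.49 with a 95% interval of -0.17 to 1.15. Eif1, the gatekeeper against wrong start codons, measured 13.87, 13.91 and 13.91 in LPS/GalN and 13.81, 13.92 and 13.62 in LPS (0.12 ± 0.21) in its kept row. Its other rows, dimmer but well above background, differed by 0.64 and 0.52. In those rows the groups did not overlap, and neither passed. The Eif1 relative Eif1b differed by 0.26 ± 0.26. Eif5 encodes the GTPase-activating protein of eIF2. It measured 12.003, 12.042 and 11.845 in LPS/GalN and 11.27, 11.42 and 11.28 in LPS, a difference of 0.64 ± 0.21 that did not pass (limma adjusted p = 0.157). All 6 target rows of Eif5 were higher in LPS/GalN, by 0.39 to 0.84. The Eif5 groups did not overlap. Its adjusted p was 0.00727 with limma's trend and robust prior, 0.0485 with log2(value + 32) and 0.0381 in the deposited series table. With any single array left out Eif5 did not pass, at limma adjusted p up to 0.354.

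The 9 genes of the eIF2 trimer (4) and its exchange factor eIF2B (5) showed 0 calls in either direction, with a median of -0.05. Eif2a, which encodes a separate factor outside both complexes and is grouped with them in the plot by class, differed by 0.27 ± 0.22. Eif2s1, the alpha subunit that the kinases phosphorylate, measured 7.78, 7.51 and 8.93 in LPS/GalN and 8.58, 8.76 and 8.38 in LPS (-0.50 ± 0.37). The groups overlapped through LPS/GalN array 3. The beta subunit Eif2s2 differed by 0.29, and the gamma subunits Eif2s3x and Eif2s3y by 0.03 and -0.08.

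Of the 5 eIF2B subunits, Eif2b3 and Eif2b4 had the lowest values in LPS/GalN. Eif2b3 measured 7.85, 6.03 and 7.29 in LPS/GalN and 8.15, 7.80 and 8.28 in LPS (-1.02 ± 0.44, limma adjusted p = 0.283). Its second row differed by -0.04, and without LPS/GalN array 2 the kept row differed by -0.51. Eif2b4 measured 9.02, 8.77 and 8.38 in LPS/GalN and 9.13, 9.25 and 9.16 in LPS (-0.46 ± 0.24), with groups that did not overlap. Eif2b1 measured 9.44, 9.46 and 9.35 in LPS/GalN and 9.49, 9.30 and 9.40 in LPS. Eif2b2 measured 10.66, 10.75 and 10.53 in LPS/GalN and 10.42, 10.92 and 10.74 in LPS. Eif2b5, the catalytic subunit, measured 9.48, 9.24 and 9.71 in LPS/GalN and 9.31, 9.42 and 9.40 in LPS, and in these 3 genes the groups overlapped and differences lay between -0.05 and 0.10.

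None of the 3 eIF2-alpha kinases measured here passed the threshold, and their groups overlapped. Eif2ak1, the haem-regulated kinase, measured 10.43, 10.64 and 10.77 in LPS/GalN and 10.50, 10.62 and 10.61 in LPS (0.04 ± 0.21). Eif2ak3, the endoplasmic reticulum kinase PERK, measured 6.85, 7.28 and 7.41 in LPS/GalN and 6.88, 7.504 and 7.08 in LPS (0.03 ± 0.27). Eif2ak4, the amino acid sensor GCN2, measured 6.58, 5.89 and 7.21 in LPS/GalN and 6.26, 7.34 and 6.79 in LPS (-0.24 ± 0.40). The intervals of these differences, which are those of the kept rows, still allow changes of at most 0.53, 0.64 and 0.68 upward and -0.45, -0.59 and -1.16 downward. Over all rows of a gene, differences ran from -0.35 to 0.04 in Eif2ak1, 0.03 to 0.79 in Eif2ak3 and -0.24 to 0.50 in Eif2ak4. Of these rows 0 passed, and some lay near background.

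The phosphatase subunits that undo the kinases' work did fall, although they are not members. Ppp1r15a, the inducible subunit GADD34, measured 8.17, 8.12 and 8.42 in LPS/GalN and 10.39, 10.55 and 10.36 in LPS (-2.20 ± 0.21, limma adjusted p = 0.0017). Ppp1r15b, the constitutive subunit, measured 8.01, 8.07 and 7.97 in LPS/GalN and 9.46, 9.30 and 8.91 in LPS (-1.21 ± 0.23, limma adjusted p = 0.0287). In both genes the groups lay clear of each other. These were the only calls among 17 measured genes listed as cap and poly(A) partners and regulators of initiation. The call of Ppp1r15b was lost without any single array other than LPS 3, at adjusted p 0.0575 to 0.121.

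All 13 eIF3 subunits stayed within 0.5 in either direction, from -0.29 to 0.48, and 0 passed the threshold. The subunits form the scaffold that joins the small ribosomal subunit to the cap complex. In 6 of them the LPS/GalN livers were all higher than the LPS livers and in 1 all lower, and the median was 0.21. The shares over all features were 13.0% and 11.1%. Of the 19796 features above background on all arrays, 3556 were all higher and 2957 all lower. Eif3g, which contacts the mRNA entry side, measured 10.57, 10.61 and 10.64 in LPS/GalN and 9.76, 10.33 and 10.28 in LPS (0.48 ± 0.24, limma adjusted p = 0.349). Eif3h differed by 0.42 ± 0.24 and Eif3k by 0.30 ± 0.21. Eif3j1 had the lowest difference, at -0.29 ± 0.23. Eif3a, the largest subunit, measured 8.36, 8.71 and 8.06 in LPS/GalN and 8.87, 8.07 and 8.62 in LPS, and the groups overlapped.

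The genes grouped as eIF4, some of which lie outside the cap-binding complex, had mostly small differences. Of 12 eIF4 genes, 0 passed the threshold, the median was 0.08, and 11 lay within 0.5. Eif4e, which binds the cap, measured 9.86, 9.73 and 10.43 in LPS/GalN and 9.70, 10.16 and 10.01 in LPS (0.05 ± 0.27). Eif4g1, the scaffold of the complex, measured 13.87, 13.87 and 13.69 in LPS/GalN and 13.78, 13.64 and 13.71 in LPS (0.10 ± 0.20). The groups overlapped in both. Eif4g2, a relative that lacks the cap-binding protein's site, measured 10.98, 11.10 and 11.32 in LPS/GalN and 11.003, 11.10 and 10.85 in LPS.

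The helicases that unwind the leader also showed overlapping groups. Eif4a1 measured 11.64, 11.37 and 12.76 in LPS/GalN and 11.72, 11.98 and 12.06 in LPS, with a spread in LPS/GalN (SD 0.74) that came from array 3. Eif4a2 measured 10.72, 11.08 and 11.17 in LPS/GalN and 10.76, 10.86 and 10.72 in LPS. The eIF4 gene with the smallest p was Eif4e1b, described as oocyte-specific, at 6.00, 6.66 and 6.63 in LPS/GalN and 5.84, 5.94 and 5.50 in LPS (0.67 ± 0.27, limma adjusted p = 0.251). The 5 rows of Eif4e1b were dim, with means of 5.11 to 6.10, and differed by -0.17 to 0.82. Without LPS/GalN arrays 2 and 3, where the thymus markers were high, its kept row differed by 0.23.

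The 4E-binding proteins hold Eif4e away from Eif4g1 when mTOR signalling is low. Eif4ebp1 measured 12.41, 12.11 and 11.89 in LPS/GalN and 11.92, 12.08 and 12.05 in LPS (0.12 ± 0.23). Eif4ebp2 measured 11.28, 11.49 and 10.58 in LPS/GalN and 11.04, 10.54 and 10.91 in LPS (0.29 ± 0.30). Eif4ebp3 differed by -0.63 ± 0.38, and its LPS values spread from 11.02 to 12.45, so that the groups of all 3 overlapped and 0 were called.

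Eif6 fell. The protein binds the large ribosomal subunit, takes part in its maturation and keeps it from joining the small subunit too early. Eif6, on chromosome 2 at 155645572 to 155652389 of mm9, measured 9.72, 9.98 and 9.57 in LPS/GalN, against 11.30, 11.29 and 11.01 in LPS. The difference was -1.44 ± 0.23, or 2.72-fold lower (limma adjusted p = 0.0114), and the groups did not overlap. The second row of the gene differed by -1.66 ± 0.23 and also passed. The adjusted p was 0.0606 without LPS array 1 and 0.0591 without LPS array 2, while the difference was -1.48 without the 2 LPS/GalN arrays that carried thymus markers and -1.25 without the 2 LPS arrays that carried intestine markers. Eif5a, which helps the ribosome past difficult peptide bonds, measured 12.38, 12.64 and 12.66 in LPS/GalN and 12.73, 12.69 and 12.54 in LPS (-0.09 ± 0.21). Its relative Eif5a2 lay near background at -0.28 ± 0.28.

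**Figure D2:**
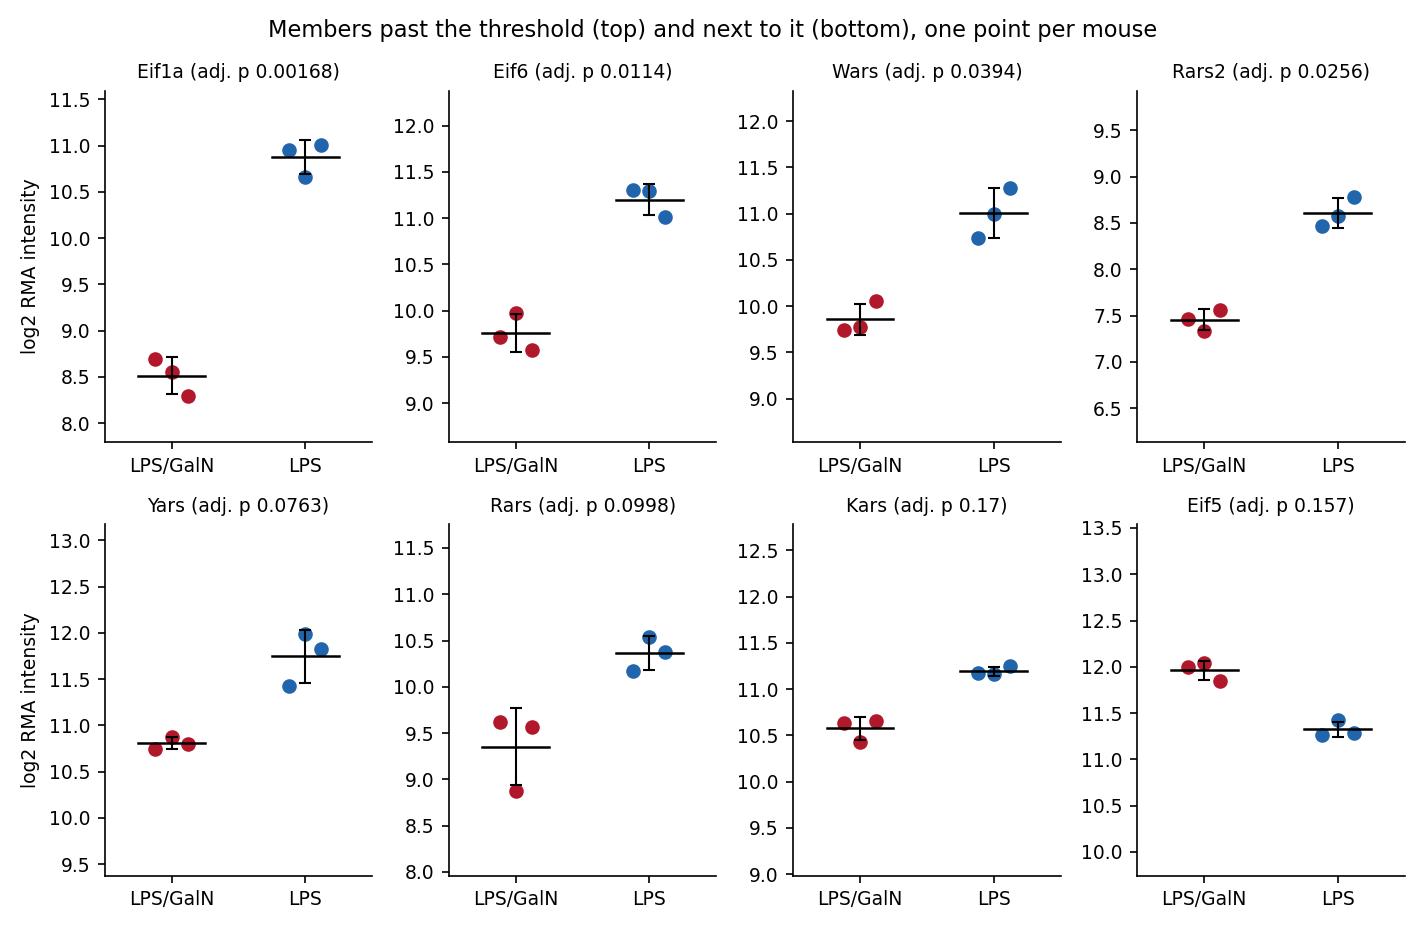
Log2 RMA intensity per mouse (points) with group mean and SD (bars) in LPS/GalN (red, left) and LPS (blue, right), with limma adjusted p above each panel and the same span on every y axis. In the 4 upper genes and in Yars, Rars and Kars every LPS/GalN liver lies below every LPS liver, and in Eif5 above.

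The 21 cytosolic synthetases held several genes with lower values in LPS/GalN beside a majority near 0. A single member, Wars, fell, and 0 rose. At an unadjusted p under 0.05, 5 were lower and 0 higher. The lower share was 23.8% of the class, against 9.03% of all features and 12.7% of those above background on all arrays. In 6 members the groups were apart with LPS/GalN lower, or 28.6%, against 11.1% of all features and 14.9% of those above background. In 1 they were apart with LPS/GalN higher, or 4.76%, against 13.0% of all features and 3556 of the 19796 above background. The median over all 21 was -0.02. No test of the class as a whole was made.

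Wars charges tryptophan tRNA and is known as a target of interferon gamma. Its kept row, on chromosome 12 at 110098241 to 110131407 of mm9, measured 9.74, 9.78 and 10.05 in LPS/GalN and 10.74, 10.998 and 11.27 in LPS. The difference was -1.15 ± 0.24, or 2.22-fold lower (limma adjusted p = 0.0394). All 3 rows of the gene were lower in LPS/GalN, by -1.32 to -1.10, and 2 of them passed. The call rested on all 6 arrays, since the adjusted p was 0.0728 to 0.129 with any single array left out. The difference was -1.26 without LPS/GalN arrays 2 and 3 and -1.42 without LPS arrays 1 and 2.

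Next to Wars stood synthetases for tyrosine, arginine, lysine and phenylalanine, none of which passed. Yars measured 10.74, 10.88 and 10.80 in LPS/GalN and 11.43, 11.99 and 11.82 in LPS (-0.94 ± 0.23, limma adjusted p = 0.0763). Rars measured 9.63, 8.88 and 9.56 in LPS/GalN and 10.18, 10.54 and 10.38 in LPS (-1.01 ± 0.27, limma adjusted p = 0.0998). Kars, which serves cytosol and mitochondria from the same gene, measured 10.63, 10.43 and 10.66 in LPS/GalN and 11.17, 11.16 and 11.25 in LPS (-0.62 ± 0.21, limma adjusted p = 0.17). In each of these the groups were apart, as in Farsa, the catalytic subunit for phenylalanine (-0.63 ± 0.25), whose partner subunit Farsb differed by 0.03 ± 0.27. With limma's trend and robust prior Yars, Rars and Kars passed, at adjusted p 0.00101, 0.00691 and 0.0205. In the deposited series table, which holds fewer features, they passed at 0.0211, 0.037 and 0.0421. With log2(value + 32) Yars and Rars passed at 0.0242 and 0.0461. With any single array left out none of the genes passed, at limma adjusted p up to 0.23 for Yars, 0.265 for Rars and 0.343 for Kars.

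The remaining cytosolic synthetases had overlapping groups in most cases. Hars was the only one with all LPS/GalN livers higher (0.42 ± 0.23), and Nars had all of them lower (-0.33 ± 0.22). Sars measured 12.63, 12.40 and 12.45 in LPS/GalN and 12.15, 12.50 and 12.36 in LPS. Mars1 measured 10.01, 10.03 and 10.04 in LPS/GalN and 9.91, 9.53 and 10.18 in LPS. These groups overlapped, as did those of Eprs, the joint synthetase for glutamate and proline. Eprs measured 10.90, 10.98 and 11.21 in LPS/GalN and 11.17, 11.12 and 11.23 in LPS. Lars measured 10.52, 9.90 and 10.43 in LPS/GalN and 9.91, 10.09 and 10.58 in LPS. Iars measured 9.63, 9.52 and 9.76 in LPS/GalN and 9.40, 9.44 and 9.52 in LPS. Differences of these 5 genes lay between -0.14 and 0.18. Gars, for glycine in both compartments, measured 11.81, 11.10 and 11.77 in LPS/GalN and 11.37, 11.73 and 11.76 in LPS (-0.06 ± 0.27). Aars lay near background, with 6.57, 4.35 and 4.69 in LPS/GalN and 5.18, 4.69 and 5.20 in LPS, above background on 1 LPS/GalN array and 2 LPS arrays.

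In the cytosol 8 of these synthetases (Dars, Eprs, Iars, Kars, Lars, Mars1, Qars and Rars) are known to sit in a shared complex with the scaffold proteins Aimp1, Aimp2 and Eef1e1. The 8 had a median of -0.03, with 4 below 0 and 4 above, and 0 passed. Rars and Kars were apart between the groups, while the other 6 overlapped. The scaffold genes differed by -0.07 for Aimp1, 0.06 for Aimp2 and -0.39 for Eef1e1.

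The promoters of 71 of the 97 members were matched to RefSeq windows (GRCm38.p6) from 250 bases before to 50 after the gene start, on both strands. The composite element TGATGNAA, read by ATF4 with C/EBP partners and known from amino acid response genes, was found in 6 members (Aars, Eif2s3x, Gars, Iars, Tars and Yars), or 8.45%, against 4.51% of all 27025 genes. Rars2 was the only member that fell with a window in the table, and it held no match. Shown are the windows of Yars, Gars and Tars, whose levels differed by -0.94, -0.06 and -0.02, and that of Rars2, cut at 280 bases, with the element on either strand in capitals.
Yars, chr4:129189653-129189932, plus strand: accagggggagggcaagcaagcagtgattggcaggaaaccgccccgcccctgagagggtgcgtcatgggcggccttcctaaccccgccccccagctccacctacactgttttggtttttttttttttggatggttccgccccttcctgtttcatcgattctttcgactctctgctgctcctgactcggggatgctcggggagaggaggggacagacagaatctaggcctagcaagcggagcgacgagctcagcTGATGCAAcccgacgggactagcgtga
Gars, chr6:55037751-55038030, plus strand: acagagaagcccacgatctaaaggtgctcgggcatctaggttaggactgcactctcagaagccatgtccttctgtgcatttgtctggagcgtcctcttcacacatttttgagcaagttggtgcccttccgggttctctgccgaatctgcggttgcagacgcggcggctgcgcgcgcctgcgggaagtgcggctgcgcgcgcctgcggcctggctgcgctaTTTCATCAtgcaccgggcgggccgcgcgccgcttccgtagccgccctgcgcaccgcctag
Tars, chr15:11399629-11399908, minus strand: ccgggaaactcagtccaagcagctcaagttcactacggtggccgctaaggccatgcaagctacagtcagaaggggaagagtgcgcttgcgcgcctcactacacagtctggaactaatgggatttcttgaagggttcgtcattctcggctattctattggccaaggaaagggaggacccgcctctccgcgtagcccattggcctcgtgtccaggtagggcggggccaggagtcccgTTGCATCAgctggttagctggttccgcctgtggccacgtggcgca
Rars2, chr4:34614707-34614986, plus strand: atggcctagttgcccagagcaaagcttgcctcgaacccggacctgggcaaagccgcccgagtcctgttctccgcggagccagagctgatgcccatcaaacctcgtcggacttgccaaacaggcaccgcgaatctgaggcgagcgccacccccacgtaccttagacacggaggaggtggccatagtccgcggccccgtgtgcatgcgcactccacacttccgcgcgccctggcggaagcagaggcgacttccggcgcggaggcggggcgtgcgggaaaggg

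The matches began at -30 in Gars, -15 in Tars and 3 in Yars, counted from the first base of the gene as 0. Synthetases with the element thus included Yars, apart between the groups, and Gars and Tars, in which the groups overlapped. The E-box CACGTG was found in 14 of the 71 members, or 19.7%, against 8.09% of genes, and the NRF1 site in 13, or 18.3%, against 5.19%. The interferon-stimulated element was found in 4 members (Eif2s1, Eif2s3x, Eif3a and Qars), or 5.63%, against 3.99%. These matches describe letters in the windows only, the shares were not tested, and overlaps between the motifs were not removed.

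Of 16 mitochondrial synthetases, Rars2 fell and 0 rose, and the median was 0.15. Rars2 charges mitochondrial arginine tRNA. On chromosome 4 at 34562226 to 34607413 of mm9, it measured 7.47, 7.34 and 7.56 in LPS/GalN and 8.47, 8.57 and 8.78 in LPS. The difference was -1.15 ± 0.21, or 2.22-fold lower (limma adjusted p = 0.0256). The groups did not overlap, and the adjusted p was 0.0506 to 0.0925 with any single array left out. The difference was -1.14 without LPS/GalN arrays 2 and 3 and -1.32 without LPS arrays 1 and 2.

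The remaining mitochondrial synthetases lay between -0.18 and 0.55. Aars2 (0.51 ± 0.23), Sars2 (0.48 ± 0.23) and Hars2 (0.24 ± 0.22) had all LPS/GalN livers above all LPS livers, and Vars2 differed by 0.55 ± 0.28 with overlap. Lars2 was near the top of the scale, at 15.37 to 15.68 in LPS/GalN and 15.55 to 15.78 in LPS (-0.18 ± 0.22), where the array's highest value was 15.92. The other 3 Lars2 rows had means of 4.89 to 7.02 and differed by -0.65 to -0.02. Whether the bright row measures Lars2 alone was not tested, and that row stands for Lars2 in the pairs below.

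For 15 amino acids both compartments' genes were measured, in 16 pairs because phenylalanine has both Farsa and Farsb. In 10 pairs both genes stayed within 0.5. Arginine was the single case with both genes below -0.5, at -1.01 for Rars and -1.15 for Rars2. In 3 pairs the cytosolic gene alone was below -0.5, with Wars at -1.15 and Wars2 at 0.03 ± 0.34, Yars at -0.94 and Yars2 at -0.14 ± 0.30, and Farsa at -0.63 and Fars2 at 0.25 ± 0.25. Wars2 lay near background, at 5.91 in LPS/GalN and 5.88 in LPS on average. A fall of the size seen in Wars could not be measured there. Whether the genes of a pair differed in their response was not tested.

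**Figure D3:**
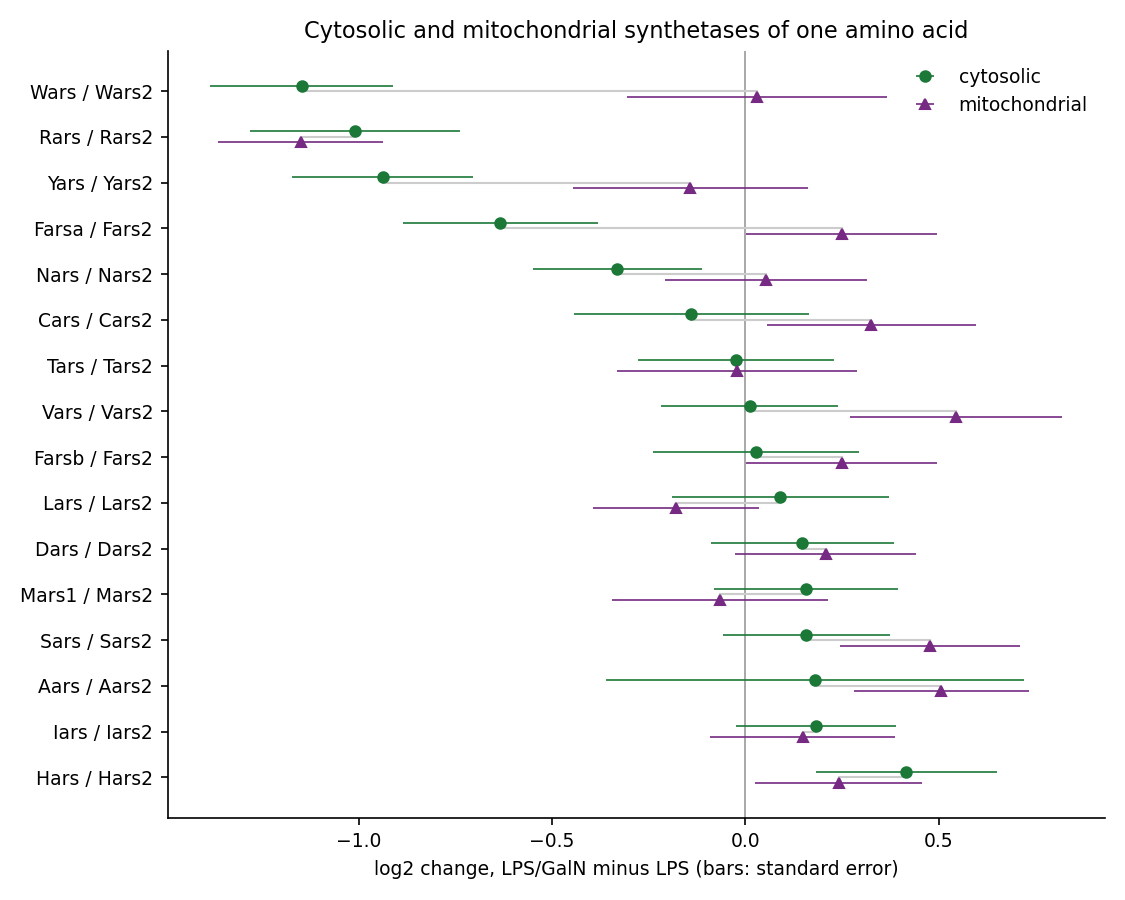
Change of the cytosolic (green circles) and mitochondrial (purple triangles) synthetase gene for each amino acid (x axis, log2 RMA intensity, LPS/GalN minus LPS, bars are standard errors), ordered by the cytosolic change. Only the arginine pair has both genes near -1, while Wars and Yars lie far left of Wars2 and Yars2. Wars2 was near background, where a fall like that of Wars could not be measured.

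Among genes with several rows, the rows of Eif6, Wars and Eif5 all had differences of the same sign and similar size. Rows of Eif2b3 and Eif4ebp3 gave unlike values, as did, among other genes, those of Eif1, Eif2ak3 and Eif2ak4 given above. The second row differed by -0.04 in Eif2b3 and 0.21 in Eif4ebp3, against -1.02 and -0.63 in the kept rows. The second row of Eif1a lies at another locus, on chromosome 12, and near background, where a fall of the size seen in the kept row could not be measured.

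**Figure D4:**
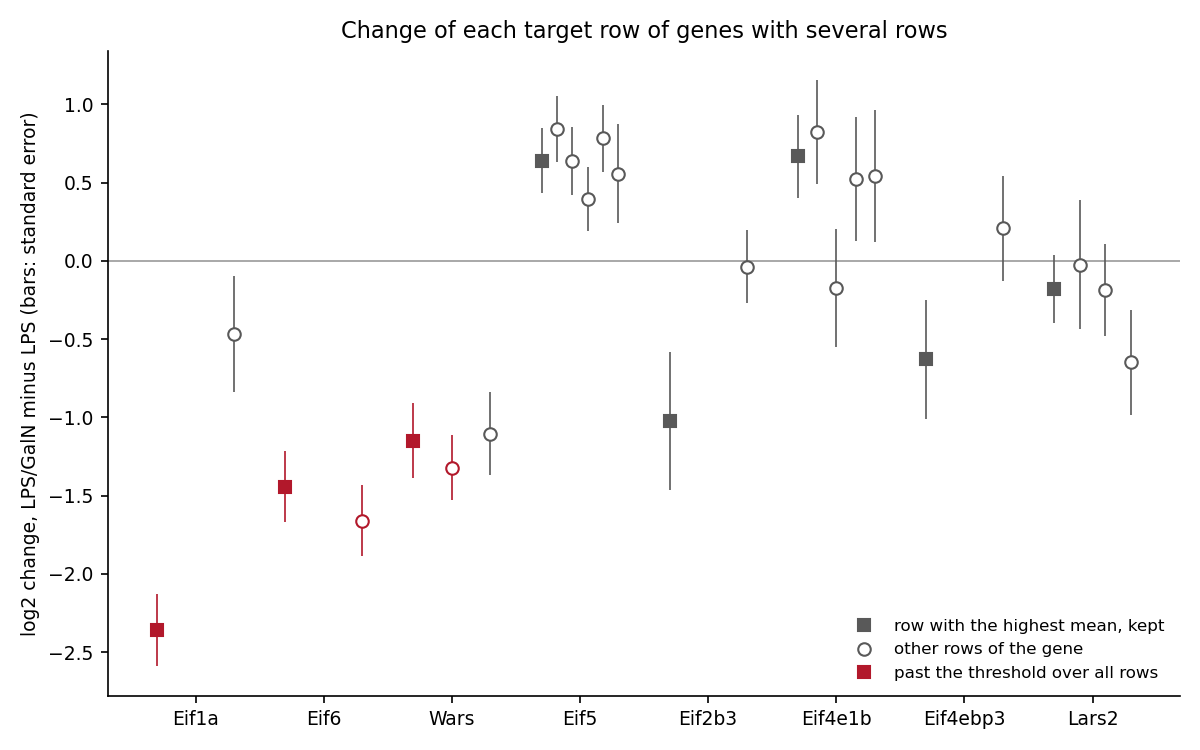
Change of each target row (y axis, log2 RMA intensity, LPS/GalN minus LPS, bars are standard errors) for 8 genes with several rows. Squares mark the kept row and red the rows past the threshold over all rows, which are 1 row of Eif1a, 2 of Eif6 and 2 of Wars.

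The rule's wording also drew in the Argonautes, which load small RNAs and carry the old name eIF2C without being initiation factors. None of the 4 passed. Ago1 measured 5.92, 7.97 and 7.67 in LPS/GalN and 5.94, 5.87 and 5.50 in LPS (1.42 ± 0.50, limma adjusted p = 0.195). Its 2 high values stood on the LPS/GalN arrays where the thymus markers were high, and without those arrays the difference was 0.15. Without LPS/GalN array 1 the difference was 2.05 and passed (limma adjusted p = 0.00722). Eif1ad, a nuclear protein with an eIF1A-like domain, had the same pattern, with 6.93, 7.94 and 8.20 in LPS/GalN and 6.98, 7.09 and 6.63 in LPS (0.79 ± 0.35), and 0.03 without those arrays. The part of the thymus signal in these values was not tested further. Ago2, Ago3 and Ago4 differed by 0.05, 0.24 and 0.47, all with overlap.

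**Figure D5:**
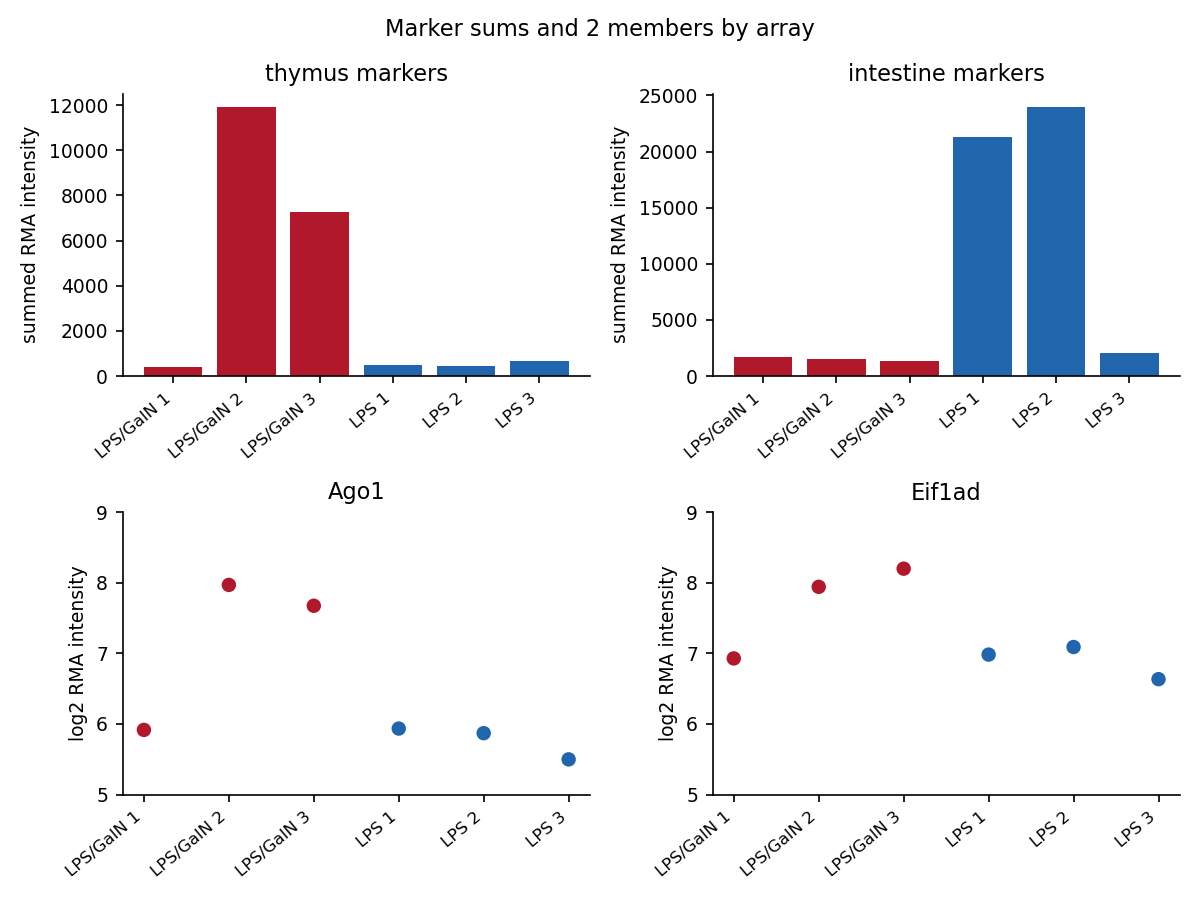
Summed RMA intensity of 8 thymus and 9 intestine markers (bars, upper row) and log2 RMA intensity of Ago1 and Eif1ad (points, lower row) on each array, LPS/GalN in red and LPS in blue. Ago1 and Eif1ad are highest on LPS/GalN arrays 2 and 3, which also have the highest thymus sums.

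A last set of 6 members were predicted copies or relatives. LOC100042807, described as similar to an eIF3 subunit, measured 6.26, 5.68 and 6.26 in LPS/GalN and 7.15, 6.70 and 7.33 in LPS (-0.998 ± 0.276, limma adjusted p = 0.108), and it passed in the series table alone (adjusted p = 0.0409). Aarsd1, which clears wrongly loaded alanine tRNA, differed by 0.47 ± 0.22, and LOC100043225, similar to eIF1, by 0.34 ± 0.20, both with all LPS/GalN livers higher. LOC100040847 and the lysyl-tRNA synthetase pseudogene were at background in part of the arrays.

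The lists of cytosolic elongation and termination factors and of mitochondrial translation factors held no call. Over all features 3.61% were called in either direction, and lists this short would hold few calls at that share. The cytosolic list includes the scaffold gene Eef1e1, and the mitochondrial list includes initiation factors. Of 13 cytosolic elongation and termination factors, 0 passed and the median was 0.18. Those with the smallest p were Eef1a2 (-0.61 ± 0.26), Eef2k, the kinase that slows elongation (0.55 ± 0.25), and Gspt2, a termination factor (0.75 ± 0.35). Eef1a2 lay near background, above it on 2 LPS/GalN arrays and on all LPS arrays. Of 7 measured mitochondrial translation factors, 0 passed and the median was 0.15, with Mtif2, a mitochondrial initiation factor, at 0.50 ± 0.26. Among them Tufm lay near background, above it on 2 arrays of each group. Eef1a1, which delivers charged tRNA, averaged 15.43 ± 0.04 in LPS/GalN and 15.40 ± 0.00 in LPS (SD, n = 3 each), near the top of the scale.

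In the list used for the ATF4 pathway, the transcriptional arm downstream of eIF2 phosphorylation, 0 of 18 measured genes were called. The share called over all features was 3.61%. Ppp1r15a, which fell, was counted among the regulators of initiation and not in this list. Atf4 itself measured 10.18, 10.24 and 9.89 in LPS/GalN and 10.82, 11.43 and 11.41 in LPS, a difference of -1.12 ± 0.26 that just missed the threshold (limma adjusted p = 0.0583). The groups did not overlap. Atf4 passed with the trend and robust prior (adjusted p = 0.000804), with log2(value + 32) (0.0214) and in the series table (0.019). With any single array left out Atf4 did not pass, at limma adjusted p up to 0.19. Its targets had differences of either sign. Phgdh, of serine synthesis, differed by 1.65 ± 0.44 (limma adjusted p = 0.0984), and Mthfd2, of mitochondrial one-carbon metabolism, by -1.56 ± 0.42 (limma adjusted p = 0.101). With the trend and robust prior both passed, at adjusted p 0.0152 for Phgdh and 0.0176 for Mthfd2. Neither passed with any single array left out. Ddit3, which encodes the stress factor CHOP, averaged 7.72 ± 0.14 in LPS/GalN and 7.72 ± 0.36 in LPS (SD, n = 3 each).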

How the data were processed

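The authors deposited RMA intensity per target and array on the linear scale, per the file headers; RMA, named in the submitters' processing notes, corrects background, normalizes between arrays and summarises probes, so a shift shared by all genes would not be seen. Its version is not given in the sources used here. Targets have mm9 gene coordinates, not probe positions, so exon or UTR placement was not examined. A deposited series table, also RMA intensity, with 18076 rows, was an alternative.

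Intensities were converted to log2. The 44170 target rows were joined by gene name into 36476 features, each represented by its brightest row, and older names of a member were joined by hand. Groups were compared with limma 3.58.1 in R 4.3.3 (lmFit, eBayes, 4.01 prior degrees of freedom, two-sided, no filter); the steps were tested on simulated data. With 3 arrays a group, precision is limited by their number.

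Per the labels, replicates came from separate treatments. Values per array are given for members past adjusted p 0.05 and for a fixed set, and the other members named have the smallest p of their class or list, or belong to a paragraph's complex or pair. Members, lists and motifs were chosen with earlier results of these data known. Marker and pathway genes that could not be matched by name (13 of all lists) were not used. Promoters came from RefSeq.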

Additional observations from a re-analysis of the deposited data

How the results depend on the processing

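With 3 arrays a group, the calls were sensitive to the arrays used. Members that fell numbered 8 with the trend and robust prior, 8 in the series table, 3 with the replicate block, 2 to 3 with any single array left out, and 0 with LPS/GalN arrays 2 and 3 or LPS arrays 1 and 2 left out, where the lone remaining array is assumed to vary like the other group. Members that rose numbered 1 with the trend and robust prior, log2(value + 32) and the series table (an initiation factor, Eif5), and 0 to 1 with an array left out. Initiation factors that fell numbered 1 to 2 with an array left out and 0 with either pair left out. Cytosolic synthetases that fell numbered 4 with the trend and robust prior, 3 with log2(value + 32), 4 in the series table, and 0 with the block, with either pair or any single array left out. Mitochondrial ones numbered 0 in those last cases. The median of initiation factors was -0.016 without LPS/GalN arrays 2 and 3. Among partners and regulators, 1 rose with the trend and robust prior, and those that fell numbered 1 with the block, 1 to 2 with an array left out and 0 with either pair left out. In the ATF4 pathway 1 rose and 2 fell with the trend and robust prior, 1 fell with log2(value + 32) and in the series table, and 0 to 1 with an array left out.

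Eif1a and the chromosome 12 homolog lost their calls only when a pair of arrays was left out (adjusted p 0.0627 and 0.124 for Eif1a, 0.11 and 0.19 for the homolog). Same-numbered arrays showed no shared deviation from their group means over all target rows (r = 0.002, -0.004 and 0.020). Such values cannot tell whether same-numbered mice were treated or processed together. With the block Wars, Rars2 and Ppp1r15b were at adjusted p 0.0760, 0.0756 and 0.0760.

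Uncalled differences near 0 changed sign as follows. With the mean of all rows Eif2ak1 was -0.097, Eif2ak4 0.127 and Eprs 0.079. With arrays centred on the median Eif2ak3 was -0.010, Eif2b1 -0.018 and Eif4a1 -0.035, and with repeated quantile normalization Eif2b2 was 0.012. Without LPS/GalN arrays 2 and 3 Eif2ak1 was -0.142, Eif2ak3 -0.303, Eif4e -0.101, Eif4a1 -0.280, Eif4a2 -0.065, Eif4g2 -0.002 and Gars 0.185. Without LPS arrays 1 and 2 Eif4e was -0.008, Eif4a1 -0.136, Eif5a 0.020, Mars1 -0.148, Lars -0.296 and Mrrf -0.112. With single arrays left out, Aars ranged from -0.506 to 0.608, Eif2ak1 from -0.037 to 0.131, Eif2ak3 from -0.111 to 0.202, Eif2ak4 from -0.563 to 0.096, Eif2b1 from -0.029 to 0.065, Eif2b2 from -0.182 to 0.068, Eif2b5 from -0.018 to 0.218, Eif3a from -0.370 to 0.028, Eif4a1 from -0.414 to 0.279, Eif4e from -0.165 to 0.188, Eif4ebp1 from -0.015 to 0.243, Gars from -0.187 to 0.165, Lars from -0.051 to 0.284, Mars1 from -0.012 to 0.310 and Mrrf from -0.017 to 0.352. The causes were not tested.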
